A study of Mus musculus with 9 samples.

Results

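The 10 genes described here encode the enzymes that hydroxylate and cross-link collagen: the lysyl hydroxylases Plod1, Plod2 and Plod3, the catalytic alpha subunits of prolyl 4-hydroxylase P4ha1, P4ha2 and P4ha3, and the lysyl oxidases Lox, Loxl1, Loxl2 and Loxl3. They are 10 of the 18755 genes in the deposited count table, matched by RefSeq gene identifier, and were chosen by name with measured values of the same treatment contrast known. Their differences between treated and control tumors are therefore a description. Where a gene is said to be called or not, this is its place in the fit across all genes, given beside the share of all genes called, and it is no independent test of the gene. Expression was measured by RNA sequencing of primary tumors grown from 4T1 cells, a metastatic murine mammary carcinoma line, in female BALB/c mice aged 6 to 10 weeks. Each mouse received 1000000 cells in mammary fat pad number 9. Oral treatment was given daily for 5 consecutive days from day 15 after injection. The BI tumors (6 libraries, replicates 4 to 9) came from mice given 50 mg/kg of BI 853520, an inhibitor of focal adhesion kinase (FAK), and the vehicle tumors (3 libraries, replicates 1 to 3) from mice given 0.5% Natrosol, the suspending agent, alone. No gene was deleted in either group, both groups carry the same cell line, and the labels name no batch. A library came from a piece of bulk tumor that holds the 4T1 cells together with host fibroblasts, vessels and immune cells, so that fewer cells of a type and less RNA per cell cannot be told apart.

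Collagen chains are hydroxylated in the endoplasmic reticulum before they fold. Prolyl 4-hydroxylase, built from an alpha subunit and the disulfide isomerase P4HB, makes the 4-hydroxyproline that stabilizes the triple helix, while the PLOD enzymes hydroxylate lysine. Outside the cell, the copper-dependent lysyl oxidases oxidize lysine and hydroxylysine so that fibrils become cross-linked, and PLOD2 is known for hydroxylating the telopeptides and thereby the type of cross-link. PLOD2, P4HA1, P4HA2 and LOX are also known targets of the hypoxia-inducible factor HIF, and both hydroxylase families use oxygen, iron, 2-oxoglutarate and ascorbate.

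Total counts ranged from 21727879 to 33850245 in the vehicle tumors and from 16931607 to 22349873 in the BI tumors, and 13966 genes passed the filter on low counts. Of the markers in the table, 0 of 11 for fibroblasts, 0 of 8 for endothelium and 0 of 7 for macrophages had a mean over the 9 tumors under 1 CPM (a count scaled to TMM-normalized library size), and 2 of 11 for epithelium did (Krt14 and Cldn3, named after their values were seen). Of all genes tested, 28.7% were called at an adjusted p of at most 0.05 (edgeR quasi-likelihood test), 14.6% as higher and 14.1% as lower in BI, and for 28.1% the values of the groups did not overlap. The median log2 fold change of all genes tested was -0.0037. All 10 genes passed the filter, with between 91 (P4ha3) and 15194 (P4ha1) counts per library. Of the 10 genes, 1 was called higher, 2 were called lower and 7 were not called, their median log2 fold change was 0.0095, and for 1 of them the groups did not overlap. The share called, 30%, stands beside the 28.7% of all genes, and since the choice of the genes used this contrast, nothing is read from it.

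**Figure D1:**
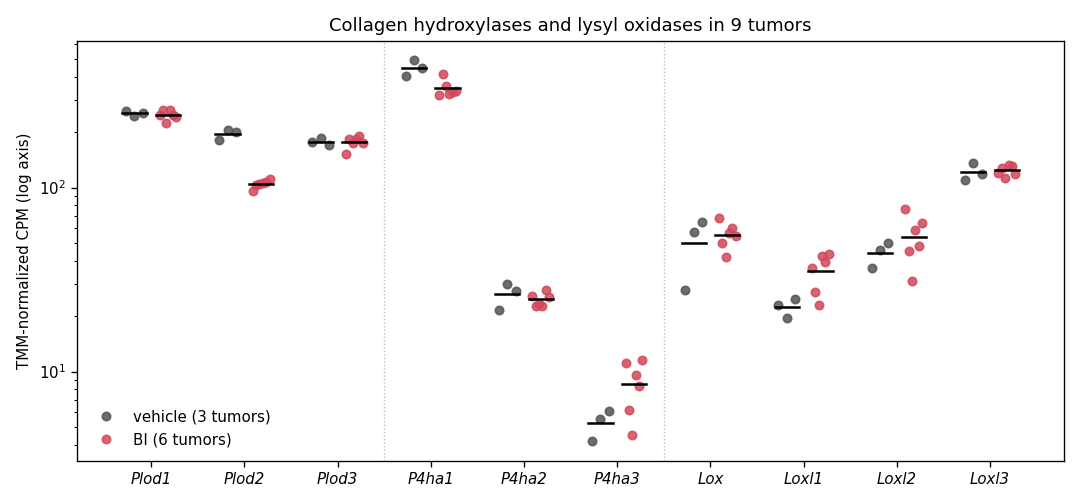
TMM-normalized CPM (counts scaled to library size, log axis) of the 10 genes in each tumor, with vehicle tumors in grey, BI tumors in red and black lines at the group means. The 6 BI tumors lie between 96.3 and 111.6 CPM for Plod2, below the vehicle tumors at 180.3 to 205 CPM, while the groups overlap for the other genes.

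Among the lysyl hydroxylases, Plod2 (mm9 chromosome 9, 92437061 to 92503266, plus strand) was lower in the BI tumors. It measured 180.3, 205 and 200.3 CPM in vehicle tumors 1, 2 and 3. In the BI tumors the lowest value was 96.3, the median 104.8 and the highest 111.6 CPM. Each of the 6 BI tumors was thus below each vehicle tumor, and the spread within either group was small beside the gap. The group means were 195 ± 13.1 CPM (SD, n = 3) and 105 ± 5.10 CPM (SD, n = 6), a log2 fold change of -0.90 with a standard error (SE) of 0.06, or a level 1.86-fold higher in vehicle. Leaving out each tumor in turn gave log2 fold changes between -0.95 and -0.86.

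The paralogs of Plod2 were not called. Plod1 (chromosome 4, 147283862 to 147310876, minus strand) measured 262, 246 and 255 CPM in the vehicle tumors and 226 to 265 CPM in the BI tumors, with a median of 247. Its log2 fold change was -0.03 (SE 0.06). Plod3 (chromosome 5, 137462889 to 137472518, plus strand) encodes an enzyme that also has glucosyltransferase activity. It measured 177, 186 and 171 CPM in the vehicle tumors, 152 to 189.5 CPM with a median of 179.8 in the BI tumors, and its log2 fold change was -0.01 (SE 0.07). For both genes the groups overlapped, and an interval of about 2 SE around the log2 fold change ran from -0.15 to 0.09 for Plod1 and from -0.15 to 0.13 for Plod3. Exons of Plod3 overlap Znhit1 on the opposite strand and Mir702 on its own strand, and use of strand in counting is not given in the sources used here, so that reads of Znhit1 may be among its counts.

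Levels of different genes were compared per length, as RPKM (CPM per kilobase of the deposited gene length). In the vehicle tumors Plod1 was at 78.2 ± 2.46 RPKM, Plod3 at 54.3 ± 2.43 RPKM and Plod2 at 52.6 ± 3.53 RPKM (SD, n = 3), and the ranges of Plod3 and Plod2 overlapped. In the BI tumors Plod2, at 28.2 ± 1.37 RPKM (SD, n = 6), was below Plod3 in each of the 6 tumors and overlapped with Loxl3, which was at 30.6 ± 1.97 RPKM. Plod2 made up between 26.5% and 29.4% of the summed Plod level in the vehicle tumors and between 16.8% and 19.0% in the BI tumors. The summed level of the Plod genes was 185 ± 2.36 RPKM in vehicle and 159 ± 7.55 RPKM in BI. These shares restate the difference in Plod2 within each library, where a common scaling of the library has no part.

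**Figure D2:**
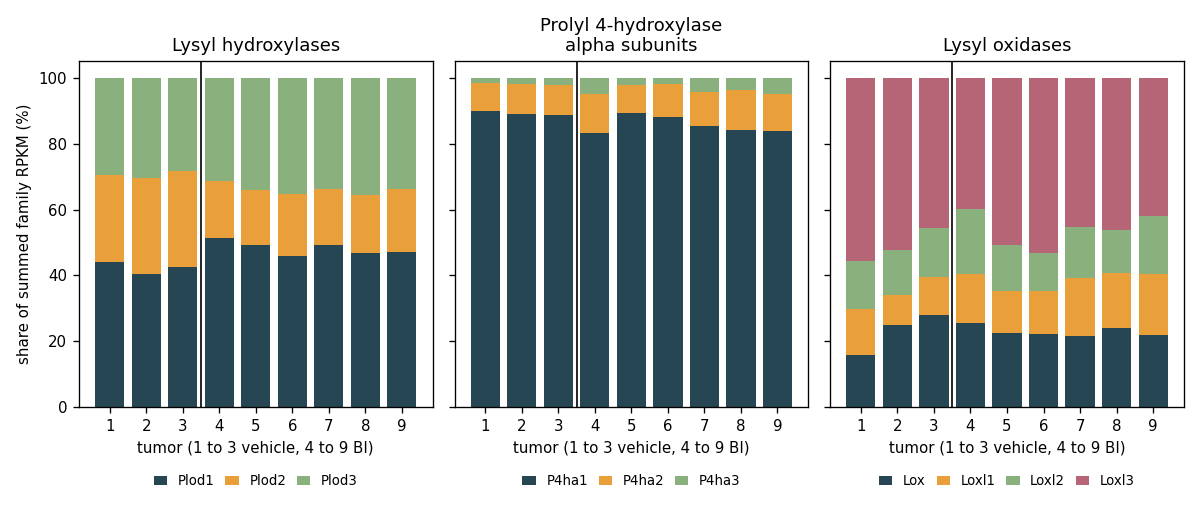
Share of each gene (in %) in the summed RPKM of its family, one bar per tumor, with vehicle tumors 1 to 3 left of the black line and BI tumors 4 to 9 right of it. The Plod2 segment takes 26.5% to 29.4% in the vehicle tumors and 16.8% to 19.0% in the BI tumors, while P4ha1 takes between 83.4% and 90.1% of its family.

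P4ha1 (chromosome 10, 58786044 to 58836052, plus strand), the major alpha subunit in many tissues, was the second gene called lower. It measured 402, 496 and 448 CPM in vehicle tumors 1, 2 and 3. Its lowest value in the BI tumors was 319.5, the median 332 and the highest 413 CPM. In 5 of the 6 BI tumors the value was below all vehicle tumors, and BI tumor 5, at 413 CPM, was above vehicle tumor 1. The group means were 448 ± 46.7 CPM (SD, n = 3) and 346 ± 35.2 CPM (SD, n = 6), a log2 fold change of -0.37 (SE 0.09) or a level 1.30-fold higher in vehicle. Without vehicle tumor 2 the log2 fold change was -0.30 and the gene was no longer called.

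P4ha2 (chromosome 11, 53913597 to 53945167, plus strand) was at 21.5, 29.9 and 27.3 CPM in the vehicle tumors and at 22.6 to 27.9 CPM in the BI tumors, with a median of 24.5. All BI values lay within the vehicle range, the log2 fold change was -0.09 (SE 0.11), and its sign turned to 0.01 without vehicle tumor 2. P4ha3 (chromosome 7, 107434030 to 107468209, plus strand), the least abundant of the 10 genes, was at 4.17, 5.55 and 6.10 CPM in the vehicle tumors. Its lowest value in the BI tumors was 4.54, the median 8.98 and the highest 11.6 CPM. BI tumor 6 lay within the vehicle range and the other 5 BI tumors above it. The means were 5.27 ± 0.992 CPM (SD, n = 3) and 8.57 ± 2.80 CPM (SD, n = 6), with a log2 fold change of 0.69 (SE 0.27), and the gene was not called by the quasi-likelihood test. It was called higher by DESeq2, by the likelihood ratio test and without BI tumor 6.

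Per length, P4ha1 was the most abundant of the 10 genes in both groups, at 111 ± 11.6 RPKM in vehicle (SD, n = 3) and 85.6 ± 8.71 RPKM in BI (SD, n = 6). In the BI tumors its range overlapped with that of Plod1, at 76.4 ± 4.50 RPKM, and in the vehicle tumors it did not. P4ha1 took 89.2% ± 0.769 of the summed P4ha level in vehicle and 85.7% ± 2.44 in BI. The share of P4ha3 was 1.79% ± 0.245 in vehicle and 3.70% ± 1.34 in BI, so the order within the family was the same in both groups. The summed level of the alpha subunits was 124 ± 13.6 RPKM in vehicle and 99.7 ± 7.54 RPKM in BI.

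The promoters of the alpha subunits are shown because P4ha1 was called lower and its paralogs were not, and because HIF binds DNA at the letters ACGTG or GCGTG. The sequences are the 250 bases before the annotated start in RefSeq (assembly GRCm38.p6, not the mm9 of the counts), written 5′ to 3′ on the strand of the gene. Capitals mark ACGTG or GCGTG on either strand, where CACGT and CACGC are the same letters read on the other strand. P4ha1 (chr10:59323046-59323295, plus strand) held 3 matches, P4ha2 (chr11:54100674-54100923, plus strand) held 3 matches, and P4ha3 (chr7:100285270-100285519, plus strand) held none.
P4ha1: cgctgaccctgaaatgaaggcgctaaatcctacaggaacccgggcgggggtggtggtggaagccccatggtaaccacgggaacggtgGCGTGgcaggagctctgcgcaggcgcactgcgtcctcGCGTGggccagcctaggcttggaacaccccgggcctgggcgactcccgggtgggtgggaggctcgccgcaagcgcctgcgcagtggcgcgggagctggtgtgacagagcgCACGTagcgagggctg
P4ha2: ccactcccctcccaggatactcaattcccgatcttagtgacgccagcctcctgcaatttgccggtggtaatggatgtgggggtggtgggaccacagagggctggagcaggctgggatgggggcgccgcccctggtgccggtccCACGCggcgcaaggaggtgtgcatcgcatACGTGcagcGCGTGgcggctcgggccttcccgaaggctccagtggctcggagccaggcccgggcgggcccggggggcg
P4ha3: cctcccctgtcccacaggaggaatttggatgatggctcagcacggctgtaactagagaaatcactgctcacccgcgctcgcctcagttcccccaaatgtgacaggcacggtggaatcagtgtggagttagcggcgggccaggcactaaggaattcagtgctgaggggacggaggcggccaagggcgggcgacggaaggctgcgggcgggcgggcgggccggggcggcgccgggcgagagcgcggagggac
In P4ha1, GCGTG began 163 and 126 bases before the start and the reverse complement of ACGTG 16 bases before it. In P4ha2, the reverse complement of GCGTG began 107 bases, ACGTG 78 bases and GCGTG 69 bases before the start. P4ha1 and P4ha2 thus had the same number of matches. Of the 13994 promoter windows of genes tested, 53.8% held at least 1 match and 11.1% held 3 or more, so that such matches are common. Plod3 held 4 matches and Plod1 held 1. Any relation of the matches to the calls was not tested. A match describes letters and not binding, and the window of P4ha3 without one says nothing of the factor. Promoter windows were matched for 5 of the 10 genes, and Plod2, Lox, Loxl1, Loxl2 and Loxl3 had none in the table.

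Among the lysyl oxidases, Loxl1 (chromosome 9, 58135530 to 58161019, minus strand), whose product is known for cross-linking elastin, was the gene called higher. It measured 23.1, 19.5 and 24.8 CPM in vehicle tumors 1, 2 and 3. Its lowest value in the BI tumors was 23.0, the median 38.0 and the highest 43.6 CPM. In 5 of the 6 BI tumors the value was above all vehicle tumors, and BI tumor 6, at 23.0 CPM, was below vehicle tumors 1 and 3. The means were 22.4 ± 2.73 CPM (SD, n = 3) and 35.3 ± 8.46 CPM (SD, n = 6), a log2 fold change of 0.65 (SE 0.19) or 1.57-fold. Without vehicle tumor 1, 2 or 3 the log2 fold change was 0.67, 0.56 or 0.73, and in each of these fits the gene was not called.

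The other lysyl oxidases were not called. Loxl2 (chromosome 14, 70008978 to 70095640, plus strand), which is known for acting on type IV collagen, was at 36.6, 45.8 and 49.9 CPM in the vehicle tumors and at 31.1 to 76.3 CPM in the BI tumors, with a median of 53.3. In 3 BI tumors it was above and in 1 below all vehicle tumors, and the log2 fold change was 0.29 (SE 0.22). Lox (chromosome 18, 52675723 to 52689521, minus strand), the founding member of the family, was at 27.6, 57.6 and 64.8 CPM in the vehicle tumors and at 41.9 to 68.5 CPM in the BI tumors, with a median of 55.7. Vehicle tumor 1 stood apart with the lowest value of all 9, and the log2 fold change of 0.14 (SE 0.22) became -0.15 without it and 0.38 without vehicle tumor 3. Loxl3 (chromosome 6, 82984167 to 83002556, plus strand) was at 110.5, 135 and 118.5 CPM in the vehicle tumors and at 113 to 133 CPM in the BI tumors, with a median of 124 and a log2 fold change of 0.03 (SE 0.07). All BI values of Loxl3 lay within the vehicle range, and its exons overlap Htra2 on the opposite strand. An interval of about 2 SE around the log2 fold change ran from -0.14 to 0.72 for Loxl2, from -0.29 to 0.57 for Lox and from -0.12 to 0.18 for Loxl3.

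**Figure D3:**
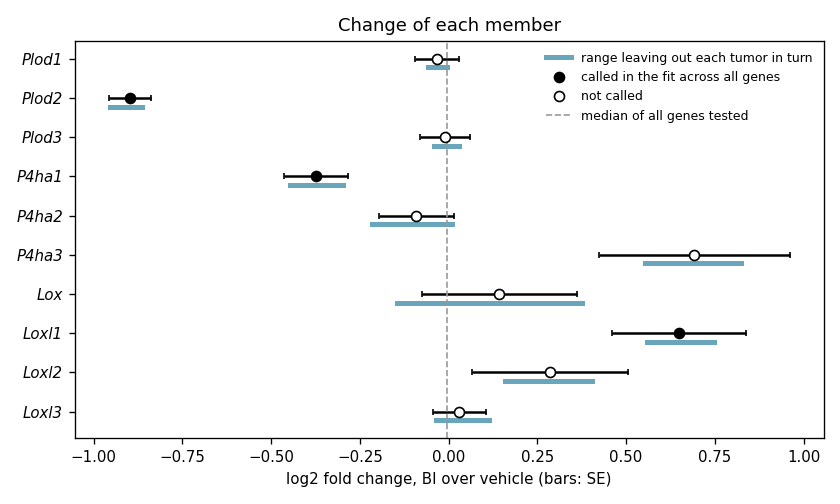
Log2 fold change of BI over vehicle for each gene (points, with bars of 1 SE, filled where called in the fit across all genes), the range when each tumor is left out in turn (blue) and the median of all genes tested (dashed). Plod2 at -0.90 and P4ha1 at -0.37 lie below the median, and Loxl1 at 0.65 and P4ha3 at 0.69 above it. The ranges of Plod3, P4ha2, Lox and Loxl3 cross it.

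Loxl3 was the most abundant lysyl oxidase per length, at 30.0 ± 3.11 RPKM in vehicle (SD, n = 3) and 30.6 ± 1.97 RPKM in BI (SD, n = 6). Lox followed at 13.9 ± 5.47 RPKM and 15.4 ± 2.51 RPKM. Loxl2 was at 8.51 ± 1.31 RPKM and Loxl1 at 6.72 ± 0.817 RPKM in vehicle, with overlapping ranges, and they were at 10.4 ± 3.06 and 10.6 ± 2.54 RPKM in BI. Along the whole order of the 10 genes, P4ha1, Plod1, Plod3 and Plod2 led in the vehicle tumors, followed by Loxl3, Lox, P4ha2, Loxl2, Loxl1 and P4ha3. The neighbours Plod3 and Plod2, Lox and P4ha2, P4ha2 and Loxl2, and Loxl2 and Loxl1 overlapped there. In the BI tumors the order was P4ha1, Plod1, Plod3, Loxl3, Plod2, Lox, Loxl1, P4ha2, Loxl2 and P4ha3, and P4ha1 and Plod1, Loxl3 and Plod2, and the neighbours from Lox down to Loxl2 overlapped. Loxl4, the remaining lysyl oxidase, was at 10.9 ± 0.588 CPM in vehicle and 9.11 ± 1.60 CPM in BI, with a log2 fold change of -0.26 (SE 0.14) and an edgeR adjusted p of 0.177. The paper's cutoffs (an unadjusted p of at most 0.05 and a change of at least 1.5-fold) were passed by 13.2% of all genes tested and by Plod2, Loxl1 and P4ha3, but not by P4ha1.

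The tumors also varied within their groups, which the choice of genes did not use. Over the 9 tumors, the deviations of log2 CPM from the group means correlated with r = 0.96 between P4ha3 and Loxl2, 0.84 between P4ha3 and Loxl1, 0.81 between P4ha2 and Lox, and 0.74 between Loxl1 and Loxl2. The lowest of the coefficients was -0.67, between P4ha1 and Loxl1, and that of Plod2 with P4ha1 was 0.35. BI tumor 6 was the lowest BI tumor for P4ha3, Lox, Loxl1 and Loxl2, and also for Plod1 and Loxl3. BI tumor 5 was the highest BI tumor for P4ha1. These coefficients are a description over 9 libraries that share depth and tissue composition as sources of variation.

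**Figure D4:**
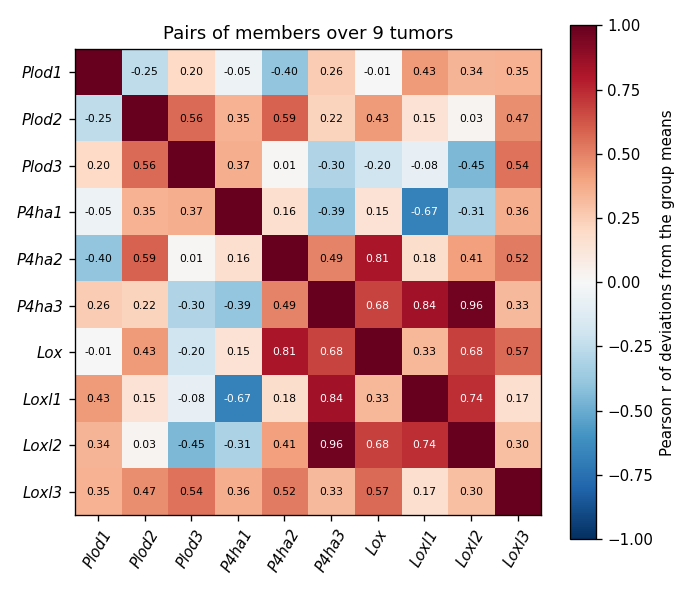
Pearson r, from -1 (blue) to 1 (red), between the deviations of log2 CPM from the group means for each pair of the 10 genes over 9 tumors. The pairs of P4ha3 with Loxl2 (0.96) and with Loxl1 (0.84) are the darkest red, and P4ha1 with Loxl1 (-0.67) is the darkest blue.

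Of the 10360 genes with a mean log2 CPM of at least 3, those whose deviations were most like those of Plod2 were Mcm3ap (r = 0.94), Zmym3 (0.92) and Arhgef10 (0.89). For P4ha1 they were Phkb, Khnyn and Fbxo44 (0.97 each), and for Loxl1 they were Crybg1 (0.97), Has2 (0.95) and Snx10 (0.95). P4ha3 was most like Meg3 (0.99), Cntln (0.97) and Cacna1g (0.97), and Loxl2 most like Dclk1 (0.98), Fgfr1 (0.96) and Col6a2 (0.96). The coefficients for the best genes of Plod1 (Pacs2, Sipa1l3 and Sap130), Plod3 (Tnk2, Ptp4a1 and Ackr3), P4ha2 (Phf23, Apex2 and Terf2), Lox (Rbm12, Tbc1d7 and Gopc) and Loxl3 (Sqor, Camk2g and Stk11) lay between 0.91 and 0.98. They are the best of 10360 coefficients over 9 tumors, which makes them high by selection.

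Within the 6 BI tumors, each gene was compared with the mean log2 CPM of 11 fibroblast markers and of 23 HIF targets, 20 relations in all. None passed an adjusted p of 0.05 in the exact permutation test (two-sided), and an unadjusted p of 0.05 or less was reached by 2. Loxl1 correlated with the fibroblast markers with r = 0.88 (exact permutation p = 0.00556, adjusted 0.111) and a Spearman rho of 1 (exact permutation p = 0.00278, the smallest that 6 tumors allow, adjusted 0.0556). P4ha3 did so with r = 0.85 (exact permutation p = 0.0306, adjusted 0.306) and a rho of 0.83 (exact permutation p = 0.0583, adjusted 0.583). Among 20 relations, a single rho at the smallest p could not pass an adjusted 0.05 by itself. The adjusted p of the rho of Loxl1 therefore decides nothing. Without BI tumors 6 and 9, the farthest from the median score, r was 0.81 for Loxl1 and 0.42 for P4ha3. Only 4 tumors remained, which are too few for r to show whether either relation rests on the tumors left out. With summed CPM in place of the mean log2 CPM, r became -0.67 for Loxl1 and -0.69 for P4ha3, and that of P4ha1 went from -0.38 to 0.95 (exact permutation p = 0.00972, adjusted 0.194). Pdgfra alone made up between 38.8% and 62.6% of that sum in the BI tumors and was highest in BI tumor 5. The score of the HIF targets correlated with Plod2 with r = -0.60 (exact permutation p = 0.206) and rho = -0.66 (exact permutation p = 0.175) and with P4ha1 with r = 0.47 (exact permutation p = 0.35) and rho = 0.26 (exact permutation p = 0.658), with an adjusted p of 0.836 for both r.

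Of the 16 partners of the hydroxylases in the endoplasmic reticulum, 1 was called lower and 15 were not called, with a median log2 fold change of -0.01. Beside this and the list counts that follow stand the 14.6% of all genes tested called higher and the 14.1% called lower. The gene that fell was P4hb, the beta subunit of prolyl 4-hydroxylase and the most abundant of the list, at 1075 ± 50.1 CPM in vehicle (SD, n = 3) and 917 ± 14.8 CPM in BI (SD, n = 6). Its log2 fold change was -0.23 (SE 0.06, edgeR adjusted p = 0.0121), with 6 of 6 BI tumors below all vehicle tumors, and it was not called without vehicle tumor 2. Among the 6 of 10 genes for procollagen processing that were tested, 3 fell and 1 rose. Bmp1, the protease that cleaves procollagen C-propeptides and activates pro-LOX, fell by 0.31 on the log2 scale (SE 0.08, edgeR adjusted p = 0.00974). Pcolce and Pcolce2, which enhance that cleavage, fell by 0.63 (SE 0.09, edgeR adjusted p = 0.00053) and 0.98 (SE 0.21, edgeR adjusted p = 0.00439). Adamts2, which removes the N-propeptide, rose by 0.79 (SE 0.19, edgeR adjusted p = 0.0101) and was not called without vehicle tumor 1.

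Of the 12 genes for fibril assembly and partners of the lysyl oxidases, 4 rose and none fell, with a median log2 fold change of 0.61. Fibronectin (Fn1) was at 8664 ± 1107 CPM in vehicle (SD, n = 3) and 13636 ± 2165 CPM in BI (SD, n = 6), with a log2 fold change of 0.65 (SE 0.14, edgeR adjusted p = 0.0049). Emilin1, an elastic fibre glycoprotein, rose by 0.91 (SE 0.12, edgeR adjusted p = 0.000213) and Fbln5, which tethers LOXL1 to elastic fibres, by 0.88 (SE 0.17, edgeR adjusted p = 0.00319). Among the substrates, 2 of 11 fibrillar collagen chains rose and 1 fell. Col1a2 rose by 0.92 (SE 0.31, edgeR adjusted p = 0.0437) and Col5a1 by 0.44 (SE 0.13, edgeR adjusted p = 0.0283), while Col5a3 fell by 0.76 on the log2 scale (SE 0.17, edgeR adjusted p = 0.00655). The number of fibrillar chains called higher was 0 without vehicle tumor 1, vehicle tumor 2 or BI tumor 7, 1 without BI tumor 4, 8 or 9, 4 without vehicle tumor 3 or BI tumor 5, and 6 without BI tumor 6. Col1a1, the most abundant of them, had a log2 fold change of 0.96 (SE 0.34) and an edgeR adjusted p of 0.0538. Both type IV chains tested, of 6 listed, fell: Col4a1 by 0.73 (SE 0.08, edgeR adjusted p = 5.97e-05) and Col4a2 by 0.59 (SE 0.07, edgeR adjusted p = 0.000151).

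Of 5 genes that supply copper or ascorbate, 4 were tested and 3 rose. The copper transporter Atp7a had a log2 fold change of 0.20 (SE 0.07, edgeR adjusted p = 0.0417), the ascorbate transporter Slc23a2 0.21 (SE 0.06, edgeR adjusted p = 0.0248) and the copper chaperone Atox1 0.19 (SE 0.07, edgeR adjusted p = 0.0469). None of these 3 was called without vehicle tumor 2 or vehicle tumor 3, and 1 was called without vehicle tumor 1 or BI tumor 6, 7 or 9. Of 23 HIF targets outside the 10 genes, 15 fell and 1 rose, with a median log2 fold change of -0.45, beside 14.1% of all genes lower. Ero1a, an oxidase that recharges protein disulfide isomerases, fell by 1.15 on the log2 scale (SE 0.09, edgeR adjusted p = 1.86e-05), Pdk1, a kinase that restrains pyruvate oxidation, by 0.53 (SE 0.07, edgeR adjusted p = 0.000165) and the glucose transporter Slc2a1 by 0.63 (SE 0.08, edgeR adjusted p = 0.000212). The glycolytic enzyme Aldoa, the most abundant of the list, was at 1792 ± 217 CPM in vehicle (SD, n = 3) and 1466 ± 101 CPM in BI (SD, n = 6) and was called lower. Pfkfb3, a regulator of glycolysis, rose by 0.36 (SE 0.10, edgeR adjusted p = 0.0153), and was not called without vehicle tumor 3. The paper stained sections of 4T1 tumors with pimonidazole, its measure of hypoxia, and reported no significant change. Those sections need not be from the tumors sequenced. The part of HIF in the values of Plod2 and P4ha1 was not tested.

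**Figure D5:**
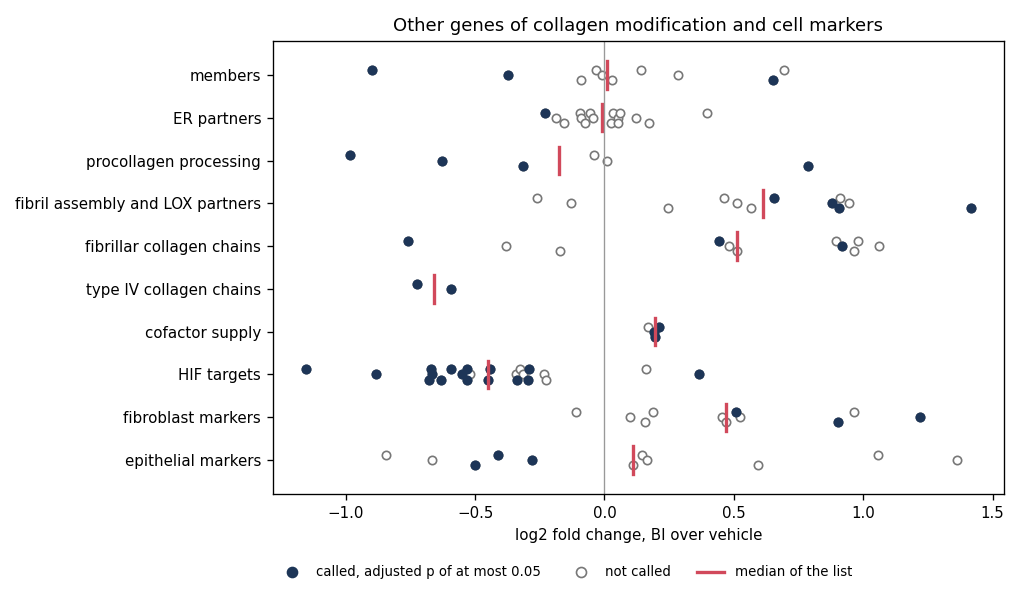
Log2 fold change of BI over vehicle for the 10 genes (top line, members) and for the genes tested in 9 other lists, one point per gene, filled where called in edgeR, with the median of each list in red. The HIF targets have a median of -0.45 and the fibril assembly genes one of 0.61, while the median of the 10 genes is 0.0095.

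Some markers of cell types differed between the groups as well. Of 11 fibroblast markers tested, 3 rose and none fell. Beside the marker counts stand the 28.7% of all genes tested that were called, 14.6% as higher and 14.1% as lower. Nothing is read from these counts of markers. The summed level of the fibroblast markers was 611 to 801 CPM in vehicle and 826 to 1317 CPM in BI. Pdgfra, which was not called, made up between 38.8% and 62.6% of that sum in the BI tumors. Fbln1 rose by 1.22 (SE 0.30, edgeR adjusted p = 0.0102), Scara5 by 0.90 (SE 0.23, edgeR adjusted p = 0.0117) and Thy1 by 0.51 (SE 0.13, edgeR adjusted p = 0.0116), and none of these 3 was called without vehicle tumor 1. Of 11 epithelial markers 3 fell and none rose, although the median log2 fold change of the list was 0.11. Their summed level was 1135 to 1367 CPM in vehicle and 880 to 1115 CPM in BI. Most of that sum came from the 3 genes called lower, Krt18, Krt8 and Spint2, with vehicle means of 579, 478 and 176 CPM. The mean log2 CPM of the list overlapped between the groups, at 2.92 to 3.27 in vehicle and 2.81 to 3.81 in BI. The keratin Krt18, the most abundant, fell by 0.50 on the log2 scale (SE 0.11, edgeR adjusted p = 0.00636). The part of these shifts in the values of the 10 genes was not tested.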

How the data were processed

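RNA was measured in 9 primary 4T1 tumors, 1 library each (3 vehicle, 6 BI), from about 80 ng of total RNA with a stranded messenger RNA protocol, sequenced from both ends. According to the paper, tumors entered its analysis only where their RNA quality was sufficient. The authors aligned reads to mm9 with STAR, kept single alignments, and deposited raw counts of reads starting in exons of each RefSeq gene. Strand use in counting is not given in the sources used here. The deposited gene length served for RPKM only. The 10 genes and all lists were chosen with earlier results of these data known.

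Symbols came from RefSeq (18700 of 18755 genes) and mm9 positions from GENCODE. With edgeR 4.0.16 in R 4.3.3, genes were filtered (filterByExpr, minimum count 10, minimum total 15), scaled by TMM (factors 0.984 to 1.02) and tested by the quasi-likelihood F test without covariates, with Benjamini-Hochberg adjustment over 13966 genes and calls at an adjusted p of at most 0.05. The SE is the size of the log2 fold change divided by the square root of the F statistic. Log2 CPM used a prior count of 2. A floor of 3 counts was 0.0886 to 0.177 CPM, which covers counting error only, and none of the 10 genes reached it. Correlations used SciPy 1.17.1. Alternatives were RLE scaling, library size, no filter, DESeq2 1.42.0, limma-voom 3.58.1, the likelihood ratio test, the paper's cutoffs (an unadjusted p up to 0.05 with a log2 change of 0.584 or more in size), leaving out each tumor, and, for the correlations, summed CPM and leaving out 2 tumors. Genes named from a list are its most abundant one and up to 3 with the smallest p in each direction among those called. Loxl4 and, for each of the 10 genes, the 3 genes most like it are named too. Of 142 list entries, 2 (Mep1b and Tcf21) were not analysed here. The labels do not say that each tumor came from its own mouse, so that p-values measure only the spread between these samples.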

Additional observations from a re-analysis of the deposited data

Results flagged for a closer look

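None of the 10 genes had a tumor far from the other BI tumors by Dixon's test. Of 68 items tested in the BI group, 5 did, where chance gives about 1 in 20 for normally distributed values. List sums were tested beside genes that dominate them, so the items are not independent. Nothing is read from the count of items flagged. In BI tumor 5 the summed level of the fibril assembly genes was 18781 CPM, with the other BI tumors between 12871 and 14786 CPM, and Fn1, which dominates that sum, was at 17911 CPM, with the others between 11832 and 13417 CPM. Pfkfb3 was at 104 CPM in the same tumor and between 74.4 and 80.7 CPM in the others. BI tumor 5 was also the BI tumor with the highest P4ha1. In BI tumor 9 the summed adipocyte markers were at 257 CPM, with the other BI tumors between 50.9 and 123 CPM, and Fabp4, the most abundant of them, was at 210 CPM, with the others between 41.0 and 102 CPM.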

How the results depend on the processing

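Replicates were numbered 1 to 3 in vehicle and 4 to 9 in BI. No paired analysis was possible because the groups share no replicate number. The calls of the 10 genes come from the contrast on which they were chosen, so that their counts below show the effect of a setting and support nothing about the genes. The log2 fold change of Plod2 ranged from -0.95 to -0.86 over the 15 alternative fits. The number of the 10 genes called higher was 2, with P4ha3 added to Loxl1, under DESeq2, the likelihood ratio test and the paper's cutoffs, and 0 to 2 when each tumor was left out. The number called lower was 1 under the paper's cutoffs, where P4ha1 missed the fold limit, and 1 to 2 when each tumor was left out. Under the paper's cutoffs, 0 partners in the endoplasmic reticulum were called lower, 0 cofactor genes and 0 HIF targets higher, 7 HIF targets lower, and 1339 genes of all tested higher and 499 lower. Without the filter on low counts, 4 fibrillar chains and 1 cofactor gene were called higher. By the likelihood ratio test 4 fibrillar chains were called higher, and by that test and DESeq2 5 fibroblast markers. When each tumor was left out in turn, the counts ranged from 0 to 1 for the partners called lower, 0 to 1 for procollagen processing called higher, 0 to 6 for fibrillar chains called higher, 0 to 2 for cofactor genes called higher, 0 to 1 for HIF targets called higher, 0 to 5 for fibroblast markers called higher, 1332 to 2026 for all genes called higher and 1172 to 1980 for all genes called lower. Fewer tumors and a fold limit are part of these alternatives, and for the others the cause was not tested. P4ha3, at 91 to 237 counts per library, had the fewest counts and the largest SE of the 10 genes.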

Other observations

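Some immune and vascular markers differed between the groups as well, beside the 14.6% of all genes tested called higher and the 14.1% called lower. Of 7 macrophage markers 6 rose, with a summed level of 1402 to 1893 CPM in vehicle and 2692 to 3490 CPM in BI. The complement gene C1qb rose by 1.11 on the log2 scale (SE 0.08, edgeR adjusted p = 1.29e-05) and the receptor Csf1r by 0.91 (SE 0.09, edgeR adjusted p = 4e-05). Of 4 neutrophil markers 3 fell, with a summed level of 499 to 721 CPM in vehicle and 203 to 353 CPM in BI, and the alarmin gene S100a9 fell by 1.30 (SE 0.17, edgeR adjusted p = 0.000235). Of 8 endothelial markers 3 rose, among them the VEGF receptor Kdr by 0.38 (SE 0.11, edgeR adjusted p = 0.0214), and the summed level was 402 to 415 CPM in vehicle and 450 to 544 CPM in BI. Of 8 mural cell markers 1 rose, the actin Acta2, by 0.27 (SE 0.09, edgeR adjusted p = 0.0465). None of the 5 adipocyte and 4 skeletal muscle markers was called at an edgeR adjusted p of at most 0.05.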
